A study of Mus musculus with 2 samples.

Results

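The expression of 35 genes of fatty acid oxidation and cholesterol synthesis was compared between the myeloid cells of injured muscle from Gata3KO and Wt mice. The members were a fixed list, 18 genes of the mitochondrial breakdown of fatty acids and 17 genes of the mevalonate and sterol pathway with its regulators, and all 35 were among the 13289 genes present in both count matrices. The rule for the list uses no measured value, but the members were chosen with earlier results of these data known. The Gata3KO mice are labelled C57BL/6:Cx3cr1CRExGata3fl/fl, that is, with floxed alleles of the transcription factor gene *Gata3* and a Cre recombinase driven by *Cx3cr1*, a chemokine receptor gene active in monocytes and macrophages. The Wt mice are labelled C57BL/6 only, with no Cre or floxed allele given. In both groups the tibialis anterior muscle had received 50 µl of 10 µM cardiotoxin, a snake venom toxin that kills muscle fibres, and live Ly6G-negative CD45+ CD11b+ cells were sorted 4 days later, of which 8000 per library were loaded for droplet 3' single-cell RNA sequencing. How many mice, and of which age, stood behind each library is not stated in the labels. With 1 library per genotype no test between genotypes was possible: all differences below are between these 2 libraries, and intervals (95%) cover counting error only.

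Fatty acid oxidation burns acyl chains in the mitochondrion. Acyl-CoA synthetases activate a fatty acid, the carnitine palmitoyltransferases carry it across the mitochondrial membranes, and a cycle of enzymes then shortens it in repeated rounds, passing electrons to the respiratory chain through the electron transfer flavoprotein. Cholesterol synthesis builds sterols from acetyl-CoA by way of mevalonate, isoprenoids and squalene, and its genes are switched on together by the transcription factor encoded by *Srebf2* when membrane cholesterol is low. In macrophages, oxidation of fatty acids is commonly associated with the alternatively activated state, and the sterol pathway is held down when the cell takes up lipid-rich debris.

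The libraries held 3434 Gata3KO and 3290 Wt barcodes, with 19422237 and 15392330 unique molecular identifiers (UMIs, single counted RNA molecules). Barcodes were kept from 500 UMIs and 200 genes upwards and up to 10% mitochondrial UMIs, which left 650 in Gata3KO and 990 in Wt. The kept Gata3KO cells were the more deeply sequenced, with a median of 13716 UMIs against 5836 in Wt. *Gata3* itself had 1 UMI in the kept Gata3KO cells and 4 in the kept Wt cells, and 8 in each library over all barcodes, too few to check the deletion. Clustering of both libraries together gave 8 clusters, numbered from 0 by size. Monocytes and macrophages were clusters 1, 2 and 3 (396 Gata3KO and 410 Wt cells), and dendritic cells were clusters 5 and 6 (54 and 175 cells). Cluster 1 (*Gpnmb*, *Fabp5*, *Spp1*) was lipid-handling macrophage-like. Cluster 2 was monocyte-like, with interferon-induced genes leading. At a finer resolution of the clustering it was mixed. Of its cells, 18 Gata3KO and 105 Wt fell in a monocyte-like finer cluster and 11 and 112 in a resident macrophage-like one. The leading genes of cluster 3 were *Cxcl2*, *Gdf15* and *Arg1*, while its markers made it lipid-handling macrophage-like too. Cluster 5 was conventional dendritic cell 2-like (*Cd209a*) and cluster 6 mature dendritic cell-like (*Ccr7*, *Fscn1*). The clusters were unequally filled: cluster 1 had 193 Gata3KO and 115 Wt cells, cluster 2 had 34 and 236, cluster 3 had 169 and 59, cluster 5 had 44 and 102, and cluster 6 had 10 and 73. Cycling macrophages, part of the mixed cluster 4, had 71 Gata3KO and 34 Wt cells.

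Levels are given as CPM, the UMIs of a gene summed over the cells of a class or cluster and scaled to 1e6 UMIs of those cells. They are counts of 3' ends and are not scaled by transcript length, so levels are compared between libraries and states and not between genes. A gene was taken as measured in a class when it reached 20 CPM in at least 1 library. A gene that reaches it in 1 library alone tends to count as higher in that library. The shares of all genes were taken with the same limit. Log2 ratios are Gata3KO over Wt with 1 CPM added to each value, and the interval beside a ratio is that of the ratio without the added CPM. A member was counted as higher or lower when the ratio passed 1.5-fold.

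In monocytes and macrophages the fatty acid oxidation genes stood at nearly the same level in both libraries. Of the 18 members, 15 were measured. None was higher in Gata3KO by 1.5-fold, where 5.05% of all 5897 measured genes were, and 1 was lower (*Acsl1*), where 7.75% of all measured genes were. The median log2 ratio of the 15 was 0.06, beside 0.05 over all measured genes. The summed level of the 18 genes was 962 CPM in Gata3KO (939 to 986) and 875 CPM in Wt (847 to 903), a log2 ratio of 0.14 (0.08 to 0.20). The sum thus differed by more than counting error, but by a small amount. The cholesterol synthesis genes stood lower in Gata3KO. Only 6 of the 17 were measured in this class; 2 of them (*Pmvk* and *Srebf2*) were lower by 1.5-fold and none was higher. Their median log2 ratio was -0.46, 5 of 6 lay below 0, and the summed level of the 17 genes was 227 CPM in Gata3KO (216 to 239) against 288 CPM in Wt (272 to 304), a log2 ratio of -0.34 (-0.45 to -0.23).

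**Figure D1:**
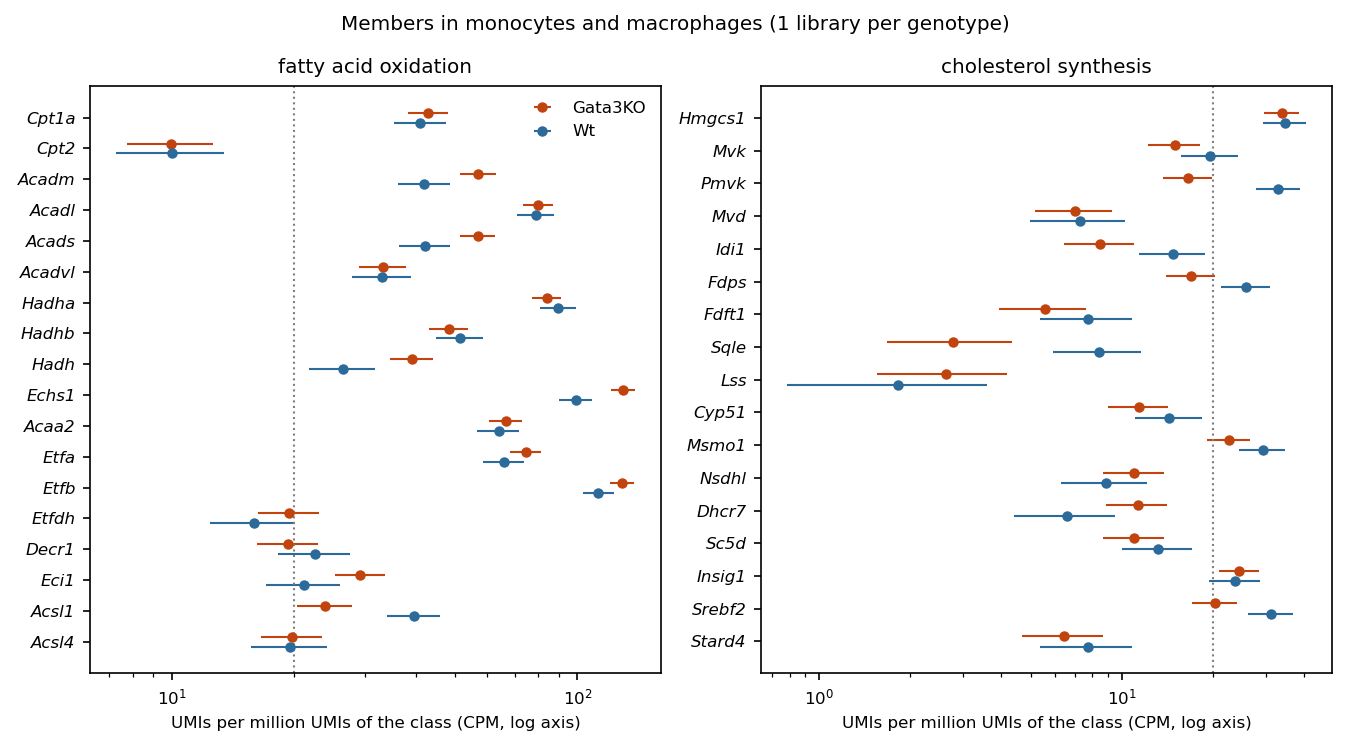
Levels of the 18 fatty acid oxidation members (left) and the 17 cholesterol synthesis members (right) in monocytes and macrophages, in CPM on a log axis. Points are the summed level of 1 library each, Gata3KO above Wt for each gene, with 95% Poisson intervals, and the dotted line marks 20 CPM. *Acsl1* lies lower in Gata3KO among the oxidation genes, and *Pmvk*, *Fdps* and *Srebf2* lie lower in Gata3KO among the cholesterol genes.

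Among the genes of activation and entry, *Acsl1* was the one that differed. *Acsl1* (ENSMUSG00000018796, chr8:46471037-46536051, plus strand, mm10) encodes a long-chain acyl-CoA synthetase that is also induced in macrophages by inflammatory stimuli. It stood at 23.9 CPM in Gata3KO (163 UMIs) and 39.6 CPM in Wt (174 UMIs), a log2 ratio of -0.71 (-1.05 to -0.41). Under the 14 other ways of processing tried for single genes its ratio stayed between -1.22 and -0.30. Within clusters it was at 27.0 CPM in Gata3KO and 31.1 CPM in Wt in cluster 1, at 30.7 and 47.5 CPM in cluster 2, at 19.5 and 37.3 CPM in cluster 3, at 24.2 and 45.4 CPM in cycling macrophages and at 41.8 and 65.6 CPM in cluster 5. It was thus lower in Gata3KO in these 5 states, with intervals that lay wholly below 0 in cluster 3 (-1.58 to -0.26) and cycling macrophages (-1.72 to -0.09). In cluster 6 it stood at 87.6 CPM in Gata3KO, from 7 UMIs, and 79.4 CPM in Wt. *Acsl4*, a synthetase that prefers arachidonic acid, was at 19.8 CPM in Gata3KO and 19.6 CPM in Wt, just under the limit. *Cpt1a*, the outer-membrane carnitine palmitoyltransferase that sets the rate of entry, was at 42.9 CPM in Gata3KO and 41.0 CPM in Wt, a log2 ratio of 0.06 (-0.21 to 0.34). The level of *Cpt1a* over the class hid unlike values within it: 47.6 CPM in Gata3KO and 31.1 CPM in Wt in cluster 1 (0.60, 0.15 to 1.11), against 24.6 and 47.5 CPM in cluster 2 (-0.92, -2.21 to 0.09, from 8 Gata3KO UMIs). *Cpt2*, its partner at the inner membrane, was low, at 9.95 CPM in Gata3KO and 10.0 CPM in Wt.

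None of the acyl-CoA dehydrogenase genes, whose products open each round, passed 1.5-fold in the class. *Acadvl*, for very long chains, was at 33.1 CPM in Gata3KO and 33.0 CPM in Wt, and *Acadl*, for long chains, at 79.9 and 79.0 CPM. The log2 ratios of these genes were 0.00 (-0.30 to 0.31) and 0.02 (-0.18 to 0.22). *Acadm*, for medium chains, stood at 56.9 CPM in Gata3KO and 41.9 CPM in Wt, a log2 ratio of 0.43 (0.19 to 0.70). *Acads*, for short chains, stood at 56.8 CPM in Gata3KO and 42.1 CPM in Wt, a log2 ratio of 0.42 (0.18 to 0.69). Both intervals lay above 0. Within states *Acadm* had log2 ratios of 0.32 (-0.06 to 0.72) in cluster 1, 0.48 (-0.34 to 1.25) in cluster 2, 0.59 (0.02 to 1.23) in cluster 3 and -0.32 (-0.90 to 0.26) in cycling macrophages. Those of *Acads* were 0.14, -0.35, 0.45 and 0.04 in the same order, each with an interval that included 0. Electrons from these enzymes pass to the flavoprotein of *Etfa* and *Etfb* and on to the ubiquinone oxidoreductase of *Etfdh*. *Etfa* was at 74.6 CPM in Gata3KO and 65.8 CPM in Wt, *Etfb* at 129 and 113 CPM, and *Etfdh* at 19.5 and 15.9 CPM. The log2 ratio of *Etfb* was 0.19 (0.03 to 0.35), that of *Etfa* 0.18 (-0.03 to 0.40), and *Etfdh* was under the limit.

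Of the genes for the later steps none passed 1.5-fold in the class. *Echs1*, the short-chain enoyl-CoA hydratase, was at 130 CPM in Gata3KO and 99.2 CPM in Wt, a log2 ratio of 0.38 (0.22 to 0.56). *Hadh*, the short-chain hydroxyacyl-CoA dehydrogenase, was at 39.1 CPM in Gata3KO and 26.4 CPM in Wt, a log2 ratio of 0.55 (0.25 to 0.89) and the highest of the arm. *Hadha* and *Hadhb*, which encode the subunits of the trifunctional protein for long chains, were at 84.0 and 48.2 CPM in Gata3KO and at 89.7 and 51.2 CPM in Wt, with log2 ratios of -0.09 each and intervals that included 0. *Acaa2*, the mitochondrial thiolase, was at 66.6 CPM in Gata3KO and 64.0 CPM in Wt (0.06, -0.16 to 0.28). The class values of *Hadh* and *Echs1* were not those of every cluster. *Hadh* was at 38.1 CPM in Gata3KO and 40.6 CPM in Wt in cluster 1 (-0.09, -0.53 to 0.36), at 30.7 and 17.9 CPM in cluster 2 (0.75, -0.40 to 1.83) and at 41.0 and 19.8 CPM in cluster 3 (1.01, 0.31 to 1.88). *Echs1* was at 171 and 140 CPM in cluster 1 (0.29, 0.06 to 0.52), 55.2 and 69.4 CPM in cluster 2 (-0.32, -1.13 to 0.39) and 90.0 and 92.0 CPM in cluster 3 (-0.03, -0.40 to 0.35). The auxiliary genes for unsaturated chains pointed in opposite directions. *Eci1*, an enoyl-CoA isomerase, was at 29.1 CPM in Gata3KO and 21.2 CPM in Wt (0.44, 0.10 to 0.83), while *Decr1*, the dienoyl-CoA reductase, was at 19.3 CPM in Gata3KO and 22.5 CPM in Wt (-0.21, -0.61 to 0.17). The ratios of *Hadh* and *Eci1* stayed above 0 under all 14 other ways of processing, at 0.20 to 0.87 and 0.16 to 0.56. Those of *Acadm* (-0.13 to 0.48), *Acads* (-0.01 to 0.73) and *Echs1* (-0.23 to 0.63) reached below 0 under at least 1 of them.

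Within clusters the small excess of the oxidation arm was seen in cluster 1. There the summed level was 1080 CPM in Gata3KO (1046 to 1115) and 975 CPM in Wt (927 to 1025), a log2 ratio of 0.15 (0.06 to 0.23). Of the 16 members measured in cluster 1, 1 was higher by 1.5-fold (*Cpt1a*) and none lower, beside 3.58% and 5.4% of all 5832 measured genes, and the median was 0.21. In cluster 2 the sum was 749 CPM in Gata3KO and 804 CPM in Wt (-0.10, -0.30 to 0.09). Of 14 measured members, 1 was higher (*Hadh*) and 2 were lower (*Cpt1a* and *Acsl1*), beside 13% and 14.5% of all genes there. In cluster 3 the sums were level, 849 CPM in Gata3KO and 853 CPM in Wt (-0.01, -0.13 to 0.11). Of 16 measured members, 2 were higher (*Hadh* and *Acadm*) and 1 was lower (*Acsl1*), beside 12.4% and 10.6%. At the finer resolution most Gata3KO cells of cluster 3 fell in a cluster led by *Cxcl2* and *Arg1*. There the oxidation sum was lower in Gata3KO, at 850 CPM against 992 CPM in Wt (-0.22, -0.37 to -0.08). Of the 7 finer macrophage clusters with at least 5 cells in each library, 4 had a lower and 3 a higher oxidation sum in Gata3KO. The interval lay wholly below 0 in 1 and wholly above 0 in 1. In cycling macrophages the sum was 934 CPM in Gata3KO and 1068 CPM in Wt, lower in Gata3KO (-0.19, -0.34 to -0.05), with *Acadl* at 59.3 and 110 CPM and *Echs1* at 61.8 and 112 CPM. Sums by cluster ran between 749 and 1080 CPM in Gata3KO and between 804 and 1068 CPM in Wt over these 4 states. *Echs1* stood at its highest in cluster 1, at 171 CPM in Gata3KO and 140 CPM in Wt.

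**Figure D2:**
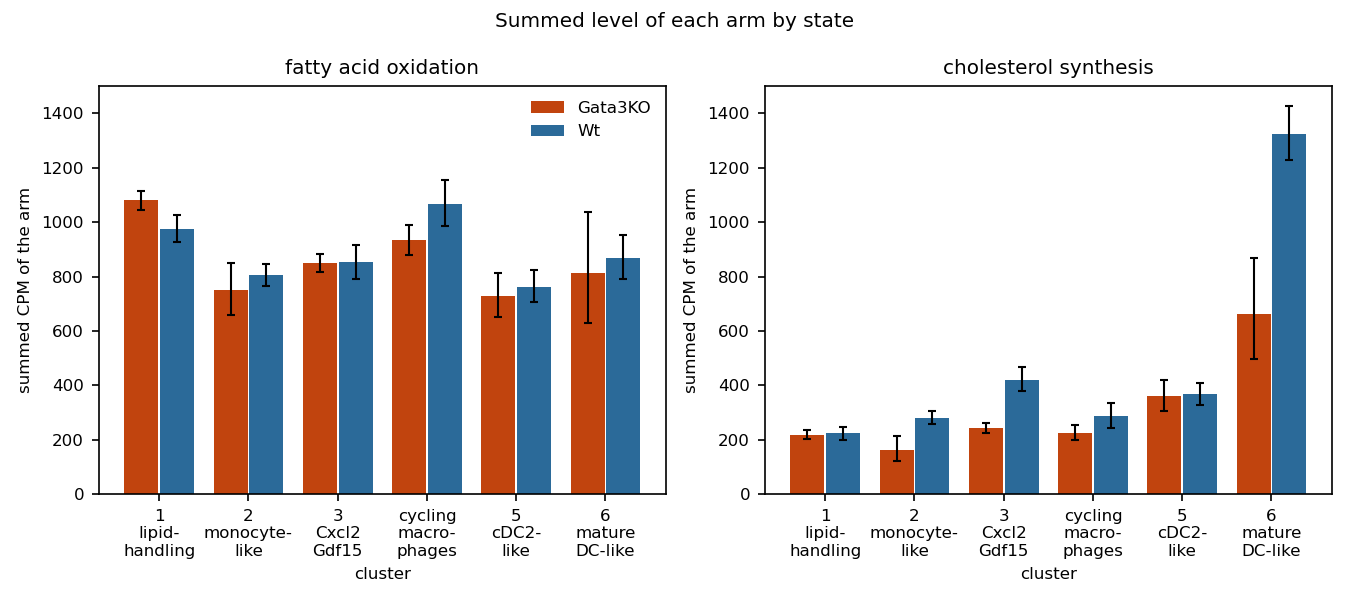
Summed CPM of the fatty acid oxidation arm (left) and the cholesterol synthesis arm (right) in each macrophage and dendritic state, Gata3KO bars left of Wt bars. Error bars are 95% Poisson intervals of the summed UMIs of 1 library each. The oxidation arm differs little between libraries, lying higher in Gata3KO in cluster 1 and lower in cycling macrophages. The cholesterol arm is lower in Gata3KO in clusters 2, 3 and 6 and in cycling macrophages, and near level in clusters 1 and 5.

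The cholesterol synthesis genes share a promoter feature that the list was not built on. In 250 bases before to 50 bases after each gene start (RefSeq promoters, GRCm38.p6), 13 of the 17 members had a sequence, and all 13 of these held CCAAT on either strand in at least 1 promoter, the box bound by NF-Y. By promoter that is 13 of 16, or 81.2%, beside 37.4% of all 32851 promoters of the table. Of the 16 oxidation members with a sequence, 6 held it (6 of 17 promoters, 35.3%). The sterol regulatory element of the *Srebf2* product, searched as TCACNCCAC on both strands and not overlapping a CCAAT box where found, was present in 1 promoter of each arm, those of *Hmgcs1* and *Acsl1*, and in 1.24% of all promoters. A match of letters is a description and does not show binding. The promoters of *Hmgcs1* (chr13:119690101-119690400), *Idi1* (chr13:8885356-8885655) and *Srebf2* (chr15:82147019-82147318), all on the plus strand, are shown because they belong to the entry enzyme, to an isomerase with a wide gap between libraries in mature dendritic cells and to the regulator itself. Capitals mark CCAAT or its complement ATTGG and the sterol regulatory element.
Hmgcs1: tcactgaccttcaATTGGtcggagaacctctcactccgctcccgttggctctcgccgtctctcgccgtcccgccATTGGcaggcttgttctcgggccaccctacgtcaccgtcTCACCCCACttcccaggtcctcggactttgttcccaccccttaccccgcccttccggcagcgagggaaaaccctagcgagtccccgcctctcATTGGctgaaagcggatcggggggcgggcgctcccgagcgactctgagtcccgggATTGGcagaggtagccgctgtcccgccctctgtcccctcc
Idi1: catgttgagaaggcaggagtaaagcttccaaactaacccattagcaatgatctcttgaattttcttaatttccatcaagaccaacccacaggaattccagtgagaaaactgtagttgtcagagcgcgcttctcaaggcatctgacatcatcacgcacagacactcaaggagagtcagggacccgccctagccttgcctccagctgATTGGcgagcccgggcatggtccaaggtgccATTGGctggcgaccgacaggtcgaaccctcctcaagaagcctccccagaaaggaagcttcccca
Srebf2: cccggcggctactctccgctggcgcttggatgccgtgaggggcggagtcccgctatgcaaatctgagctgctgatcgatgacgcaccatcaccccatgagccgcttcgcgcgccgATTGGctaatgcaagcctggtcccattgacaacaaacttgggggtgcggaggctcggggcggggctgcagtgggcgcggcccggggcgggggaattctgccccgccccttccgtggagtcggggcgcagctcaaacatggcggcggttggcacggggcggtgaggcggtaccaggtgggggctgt
In *Hmgcs1* the sterol element begins 137 bases before the start, between CCAAT boxes. *Idi1* holds its boxes 45 and 14 bases before the start, and *Srebf2* holds 1, 135 bases before it. The oestrogen-related receptor element TCAAGGTCA and the PPAR element (a repeat of AGGTCA 1 base apart) were found in 0 promoters of either arm, and in 0.423% and 0.0396% of all promoters.

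Of the regulators, *Srebf2* was lower in Gata3KO macrophages and *Insig1* was not. *Srebf2* (ENSMUSG00000022463, chr15:82147181-82205379, plus strand, mm10) stood at 20.3 CPM in Gata3KO (139 UMIs) and 31.2 CPM in Wt (137 UMIs), a log2 ratio of -0.59 (-0.97 to -0.27). Under the 14 other ways of processing it stayed between -1.17 and -0.25. *Insig1*, which retains the *Srebf2* product in the endoplasmic reticulum when sterols are plentiful and is itself one of its targets, was at 24.4 CPM in Gata3KO and 23.7 CPM in Wt (0.04, -0.32 to 0.41). *Stard4*, a carrier of cholesterol between membranes, was low in both, at 6.44 CPM in Gata3KO and 7.74 CPM in Wt.

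In the mevalonate steps *Hmgcs1*, at the head of the pathway, was level, while *Pmvk* and *Fdps* further on stood lower in Gata3KO. *Hmgcs1*, the cytosolic HMG-CoA synthase, was at 33.7 CPM in Gata3KO and 34.6 CPM in Wt (-0.04, -0.34 to 0.27). *Pmvk* (ENSMUSG00000027952, chr3:89454541-89469013, plus strand, mm10), phosphomevalonate kinase, was at 16.5 CPM in Gata3KO (113 UMIs) and 32.8 CPM in Wt (144 UMIs), a log2 ratio of -0.95 (-1.36 to -0.62). It was the member that differed most consistently: it was lower in Gata3KO in all 6 states, with intervals wholly below 0 in 5. Its levels were 16.6 CPM in Gata3KO and 22.2 CPM in Wt in cluster 1, the state with an interval that included 0 (-1.05 to 0.23). They were 18.4 and 42.4 CPM in cluster 2, 16.2 and 30.3 CPM in cluster 3, and 19.2 and 47.2 CPM in cycling macrophages. In the dendritic clusters 5 and 6 they were 19.8 and 54.3 CPM, and 37.5 (3 UMIs) and 153 CPM. *Fdps*, farnesyl diphosphate synthase, was at 16.98 CPM in Gata3KO and 25.7 CPM in Wt (-0.57, -0.99 to -0.21). *Idi1*, the isopentenyl diphosphate isomerase, was below the limit at 8.49 CPM in Gata3KO and 14.8 CPM in Wt (-0.74, -1.34 to -0.27). *Mvk*, mevalonate kinase, was at 14.9 CPM in Gata3KO and 19.6 CPM in Wt, and *Mvd*, the decarboxylase, at 7.03 and 7.28 CPM.

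The genes of the squalene and sterol steps were mostly low in these cells. *Msmo1*, the methylsterol oxidase, was the single measured one, at 22.5 CPM in Gata3KO and 29.1 CPM in Wt (-0.36, -0.72 to -0.02). *Sqle*, squalene epoxidase, had 19 UMIs in Gata3KO (2.78 CPM) and 37 UMIs in Wt (8.42 CPM). *Fdft1*, squalene synthase, was at 5.56 CPM in Gata3KO and 7.74 CPM in Wt, *Cyp51*, the lanosterol demethylase, at 11.4 and 14.3 CPM, and *Sc5d*, the sterol desaturase, at 10.98 and 13.2 CPM. These 4 stood lower in Gata3KO, with an interval wholly below 0 for *Sqle* alone (-2.48 to -0.76). Those that stood higher were *Dhcr7*, which makes the last step to cholesterol, at 11.3 CPM in Gata3KO and 6.60 CPM in Wt (0.69, 0.14 to 1.44), *Nsdhl*, a decarboxylating sterol dehydrogenase, at 10.98 and 8.88 CPM, and *Lss*, lanosterol synthase, at 2.63 CPM (18 UMIs) and 1.82 CPM (8 UMIs).

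The lower level of the cholesterol arm was not spread evenly over the macrophage states. In cluster 1 the sums were 219 CPM in Gata3KO (204 to 235) and 224 CPM in Wt (201 to 248), a log2 ratio of -0.03 (-0.21 to 0.16), and of the 5 measured members none passed 1.5-fold. In cluster 2 the sums were 163 CPM in Gata3KO, from 53 UMIs in 34 cells, and 280 CPM in Wt (-0.78, -1.22 to -0.38). There 5 of the 6 measured members were lower by 1.5-fold and none higher: *Hmgcs1* at 12.3 CPM in Gata3KO and 30.6 CPM in Wt, *Msmo1* at 6.14 and 27.1 CPM, *Fdps* at 6.14 and 22.5 CPM, *Mvk* at 3.07 and 20.9 CPM, and *Pmvk* as given above. These 5 reached 20 CPM in Wt alone, so a count as lower was likely for them. They had 4, 2, 2, 1 and 6 Gata3KO UMIs in that order, the 2 of *Fdps* from 1 cell. Among all 6095 genes measured in cluster 2, 14.5% were lower and 13% higher. The monocyte markers there summed to 6914 CPM in Gata3KO and 3870 CPM in Wt and the lipid-handling markers to 4226 and 7628 CPM, with all 10 of each list above 0 in both, and their part in the difference was not tested. In cluster 3 the sums were 243 CPM in Gata3KO (226 to 261) and 422 CPM in Wt (379 to 467), a log2 ratio of -0.80 (-0.98 to -0.61). There 7 of the 10 measured members were lower and none was higher, beside 10.6% lower and 12.4% higher among all 5863 genes. Measured members such as *Idi1*, *Sc5d*, *Fdps* and *Pmvk* reached 20 CPM there in Wt alone. All 10 ratios lay below 0, with *Idi1* at 7.28 CPM in Gata3KO and 30.3 CPM in Wt (-1.92, -2.94 to -1.18), *Sc5d* at 10.3 and 30.3 CPM (-1.47, -2.36 to -0.75) and *Fdps* at 15.2 and 40.8 CPM (-1.36, -2.09 to -0.74). The Wt cell with the most UMIs of the gene gave 7 of 26 for *Idi1*, 6 of 26 for *Sc5d* and 10 of 35 for *Fdps*. Over the finer cluster led by *Cxcl2* and *Arg1*, *Idi1* was at 6.74 CPM in Gata3KO and 13.3 CPM in Wt, *Sc5d* at 9.09 and 17.7 CPM and *Fdps* at 14.1 and 22.2 CPM. In cycling macrophages the sums were 225 CPM in Gata3KO and 287 CPM in Wt (-0.35, -0.63 to -0.06). Cluster 1 and the others thus differed in their ratios, a difference that was not tested.

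Cluster 3, where the cholesterol sum was lower in Gata3KO, held different cells in the libraries. At a finer resolution of the clustering, 155 of its 169 Gata3KO cells and 24 of its 59 Wt cells fell in a finer cluster led by *Cxcl2* and *Arg1*, while 4 Gata3KO and 29 Wt cells fell in one led by the monocyte genes *Hp* and *Vcan*. The summed level of the 10 monocyte markers in cluster 3 was 1069 CPM in Gata3KO and 4694 CPM in Wt, with all 10 above 0 in both. Over the whole of the *Cxcl2* and *Arg1* finer cluster the cholesterol arm was at 231 CPM in Gata3KO and 270 CPM in Wt (-0.23, -0.51 to 0.06), and over the *Hp* and *Vcan* finer cluster at 648 CPM in Gata3KO, from 39 UMIs in 5 cells, and 461 CPM in Wt (0.49, -0.04 to 0.997). The part of this makeup in the difference was not tested. Of the 7 finer macrophage clusters with at least 5 cells in each library, 6 had a lower cholesterol sum in Gata3KO and 2 had an interval wholly below 0. These were a finer cluster led by *Clec4b1* and *Ccr2* (152 CPM in Gata3KO against 315 CPM in Wt, -1.05, -1.72 to -0.44, 20 and 109 cells) and one led by *Pgf* and *Dab2* with cell cycle genes (222 against 379 CPM, -0.77, -1.03 to -0.52, 80 and 37 cells). Of the cells of the *Pgf* and *Dab2* finer cluster, 2 Gata3KO and 2 Wt cells came from cluster 1. From cluster 2 came 4 and 0, and from cluster 3 came 3 and 2. The rest may largely be the cycling macrophages, where the ratio was -0.35, so these are not separate results. In this finer cluster a single Wt cell, from cluster 3 and not a cycling macrophage, gave 62 of 222 cholesterol UMIs (27.9%). Without the top cell of each library the ratio was -0.58 (-0.88 to -0.29). In the *Hp* and *Vcan* finer cluster a single Gata3KO cell gave 31 of 39 UMIs (79.5%), and without the top cells the sums were 169 CPM in Gata3KO, from 8 UMIs, and 394 CPM in Wt (-1.22, -2.46 to -0.21). The direction there thus rested on 1 cell. Cycling macrophages without their top cells were at 193 CPM in Gata3KO and 269 CPM in Wt (-0.48, -0.78 to -0.17). In cluster 3 itself the same Wt cell as in the *Pgf* and *Dab2* finer cluster gave 62 of the 362 cholesterol UMIs (17.1%). A single Gata3KO cell gave 31 of 734 there. Without the cell with the most UMIs in each library the ratio in cluster 3 was -0.64 (-0.83 to -0.44).

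**Figure D3:**
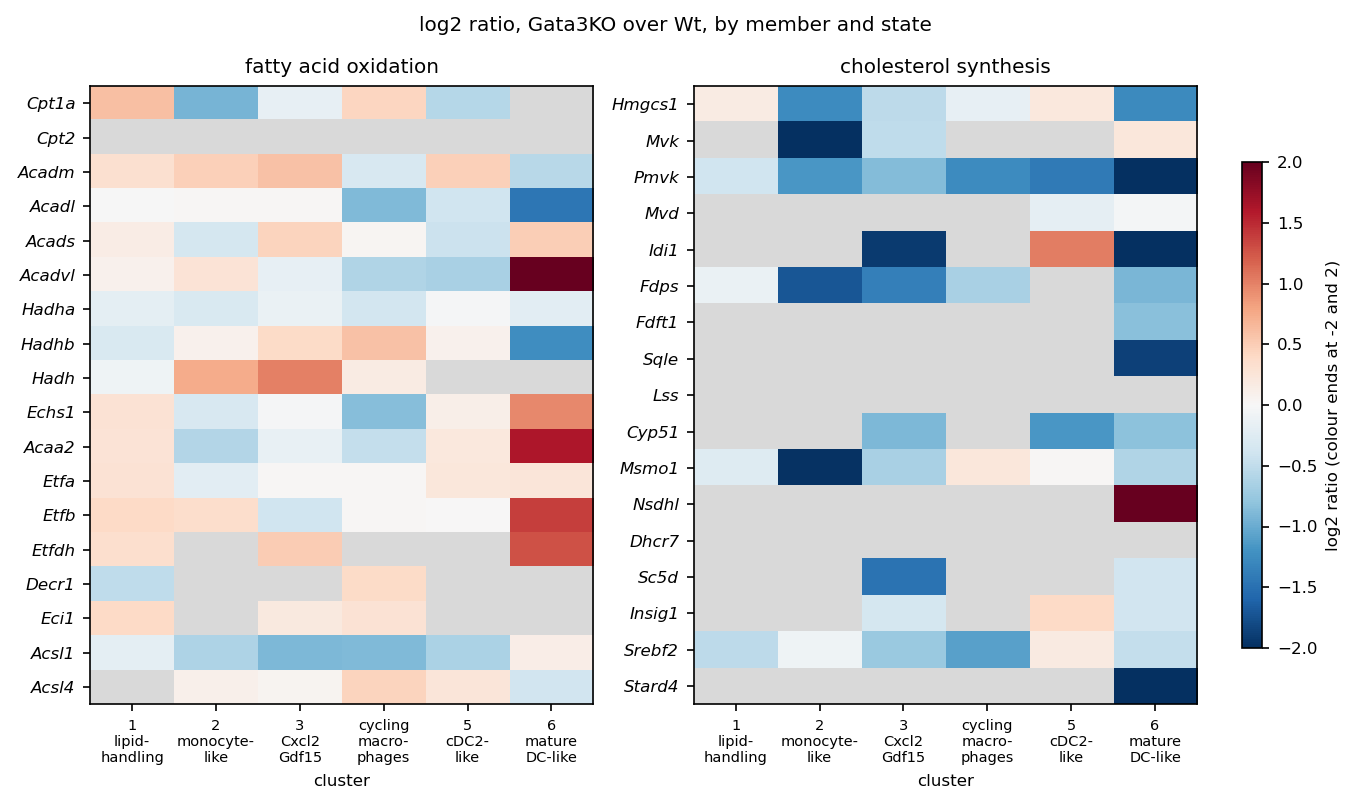
Log2 ratio of each member, Gata3KO over Wt, in 6 states, blue where lower in Gata3KO and red where higher, with grey for genes under 20 CPM in both libraries. Colours end at -2 and 2. *Pmvk* is blue in all 6 states, blue fills most measured cholesterol members in clusters 2, 3 and 6, and the oxidation arm mixes red and blue.

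In dendritic cells the cholesterol arm differed more and the oxidation arm, as a sum, did not. The 54 Gata3KO cells held 534352 UMIs and the 175 Wt cells 1400142, so single-gene values there rest on few UMIs. The oxidation arm summed to 741 CPM in Gata3KO (670 to 818) and 801 CPM in Wt (755 to 850), a log2 ratio of -0.11 (-0.28 to 0.05). Of its 14 measured members, 1 was higher (*Acaa2*, 44.9 CPM in Gata3KO and 29.3 CPM in Wt, 24 and 41 UMIs) and 1 was lower (*Acadl*), beside 11.5% and 14.9% of all 5974 measured genes. *Acadl* stood at 76.7 CPM in Gata3KO (41 UMIs) and 162 CPM in Wt (227 UMIs), a log2 ratio of -1.07 (-1.60 to -0.59). The cholesterol arm summed to 406 CPM in Gata3KO (354 to 464) and 721 CPM in Wt (677 to 767), a log2 ratio of -0.83 (-1.05 to -0.61). Of 12 measured members, 7 were lower by 1.5-fold and 1 was higher (*Nsdhl*, 11 and 14 UMIs), with a median of -0.80 beside 0.00 over all genes. The lower members were *Pmvk* (22.5 CPM in Gata3KO and 90.7 CPM in Wt), *Sqle* (5.61 and 24.3 CPM), *Idi1* (28.1 and 96.4 CPM), *Cyp51* (16.8 and 49.3 CPM), *Hmgcs1* (37.4 and 104 CPM), *Fdps* (24.3 and 45.7 CPM) and *Msmo1* (29.9 and 50.0 CPM). *Srebf2* did not stand lower beyond counting error here, at 120 CPM in Gata3KO and 125 CPM in Wt (-0.06, -0.50 to 0.36), and it was at a far higher level than in macrophages in both libraries.

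The libraries also differed in the share of mature dendritic cells, whose part in the cholesterol difference was not tested. Cluster 6 made up 10 of 54 Gata3KO and 73 of 175 Wt dendritic cells, and the summed level of the 9 mature dendritic cell markers over the class was 1301 CPM in Gata3KO and 3238 CPM in Wt, with *Ccl17* at 0 in both. In the conventional dendritic cells of cluster 5 the cholesterol sums were 361 CPM in Gata3KO (308 to 421) and 368 CPM in Wt (329 to 410), a log2 ratio of -0.03 (-0.31 to 0.25). There 1 of 8 measured members was higher (*Idi1*, 12 and 11 UMIs) and 2 were lower (*Pmvk* and *Cyp51*), beside 9.4% and 17.3% of all 6035 measured genes. Of 13 oxidation members measured there, none was higher and 2 were lower (*Acadvl* and *Acsl1*), and their sum was 728 CPM in Gata3KO and 763 CPM in Wt (-0.07, -0.26 to 0.13). *Pmvk* was the one with an interval below 0, at -1.41 (-2.67 to -0.41). With every cell thinned to 2000 UMIs the median of the arm in dendritic cells turned to 0.31, and with finer cluster shares held equal to 0.25, while the summed ratio stayed below 0 under all 16 alternatives, between -1.47 and -0.33.

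Mature dendritic cell-like cluster 6 had the highest level of the cholesterol arm of any state in both libraries, 663 CPM in Gata3KO (497 to 867) and 1325 CPM in Wt (1227 to 1428). In Wt, 14 of the 17 members stood at their highest there among the 5 macrophage and dendritic clusters, and in Gata3KO 12 did. The share of all genes at their highest there was not counted, so these counts do not single out the arm. *Hmgcs1* was at 100 CPM in Gata3KO and 244 CPM in Wt, *Idi1* at 37.5 and 240 CPM, *Srebf2* at 113 and 157 CPM, *Fdps* at 50.0 and 94.9 CPM, *Msmo1* at 62.6 and 94.9 CPM, and *Cyp51* at 50.0 and 89.1 CPM. The Gata3KO values rest on 3 to 9 UMIs per gene from 10 cells. A single Gata3KO cell gave 25 of the 53 cholesterol UMIs (47.2%), and a single Wt cell gave 79 of 684 (11.6%). Of 15 measured members, 9 were lower and 1 was higher (*Nsdhl*, 5 and 7 UMIs) by 1.5-fold, and of 13 measured oxidation members 2 were lower (*Acadl* and *Hadhb*) and 5 higher (*Acadvl*, *Echs1*, *Acaa2*, *Etfb* and *Etfdh*, on 3 to 5 Gata3KO UMIs each), beside 27.8% lower and 28.1% higher among all 5646 genes measured there. The log2 ratio of the cholesterol sum was -0.999 (-1.43 to -0.59), and -1.53 (-2.13 to -0.98) without the top cell of each library. Within the cluster the mature dendritic cell markers summed to 7531 CPM in Gata3KO and 8367 CPM in Wt, the resident macrophage markers to 1889 and 476.5 CPM (6 and 8 of 10 above 0, *Lyve1* and *Cd163* at 0 in both) and the monocyte markers to 362.8 and 1844 CPM (4 and 7 of 10 above 0, *Vcan*, *Hp* and *F13a1* at 0 in both). The T or NK cell markers summed to 62.55 CPM in Gata3KO (1 of 8 above 0) and 499.7 CPM in Wt (2 of 8), with *Cd3e*, *Cd3d* and *Nkg7* at 0 in both. The part of these in the difference was not tested. *Stard4*, counted among the 9, had 0 UMIs in Gata3KO, which allows up to 37.5 CPM, and 12 UMIs in Wt (23.2 CPM), so a difference was not detectable. *Acadl* and *Acadm* also stood highest there in both libraries, with *Acadl* at 100 CPM in Gata3KO and 275 CPM in Wt and *Acadm* at 125 and 184 CPM. In Gata3KO this rests on 8 UMIs of *Acadl* and 10 of *Acadm*, 6 of the latter from 1 cell. *Cpt1a* had 0 and 2 UMIs there, against 30.8 and 46.4 CPM in cluster 5. Since clusters were drawn from 2000 variable genes, 5 of the members among them (*Acsl1*, *Hmgcs1*, *Idi1*, *Insig1* and *Srebf2*), levels between clusters are a description.

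**Figure D4:**
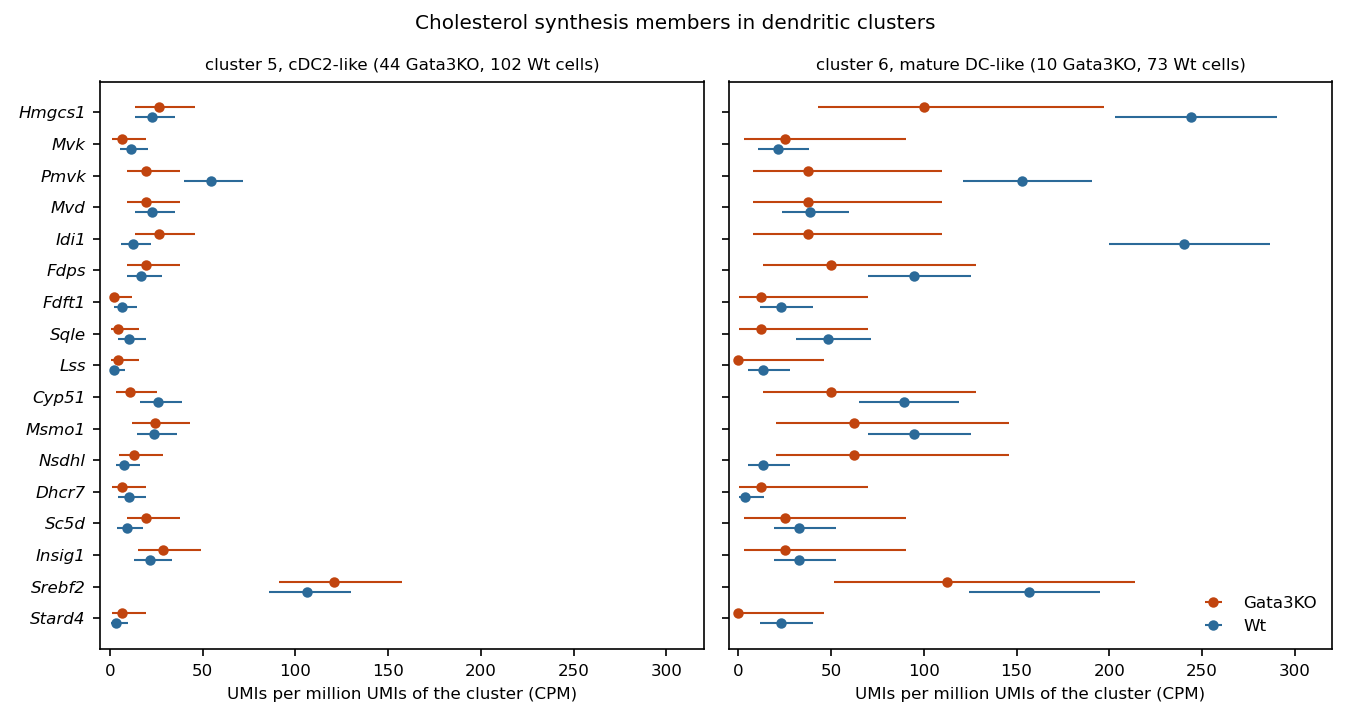
Levels of the 17 cholesterol synthesis members in conventional dendritic cell 2-like cluster 5 (left) and mature dendritic cell-like cluster 6 (right), in CPM on a linear axis, Gata3KO above Wt, with 95% Poisson intervals. In cluster 6 the Wt intervals of *Hmgcs1*, *Idi1* and *Pmvk* lie to the right of the Gata3KO intervals.

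The filter on mitochondrial share removed most barcodes, so the arms were also summed over deposited barcodes of at least 500 UMIs in bins of that share, as CPM of the non-mitochondrial UMIs. The cholesterol arm was lower in Gata3KO in the 4 bins up to 40%. Below 5% it was at 248 CPM in Gata3KO and 402 CPM in Wt (-0.69, -0.79 to -0.59), and from 20 to 40%, where most Gata3KO barcodes lay, at 209 and 289 CPM (-0.47, -0.62 to -0.31). Above 40% it was at 207 and 212 CPM (-0.04, -0.57 to 0.50). The oxidation arm was higher in Gata3KO below 5%, at 994 and 895 CPM (0.15, 0.09 to 0.21), was level from 20 to 40%, at 748 and 730 CPM (0.04, -0.06 to 0.13), and lower above 40%, at 690 and 943 CPM (-0.45, -0.72 to -0.18). These bins mix cell types, whose shares differed between libraries.

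**Figure D5:**
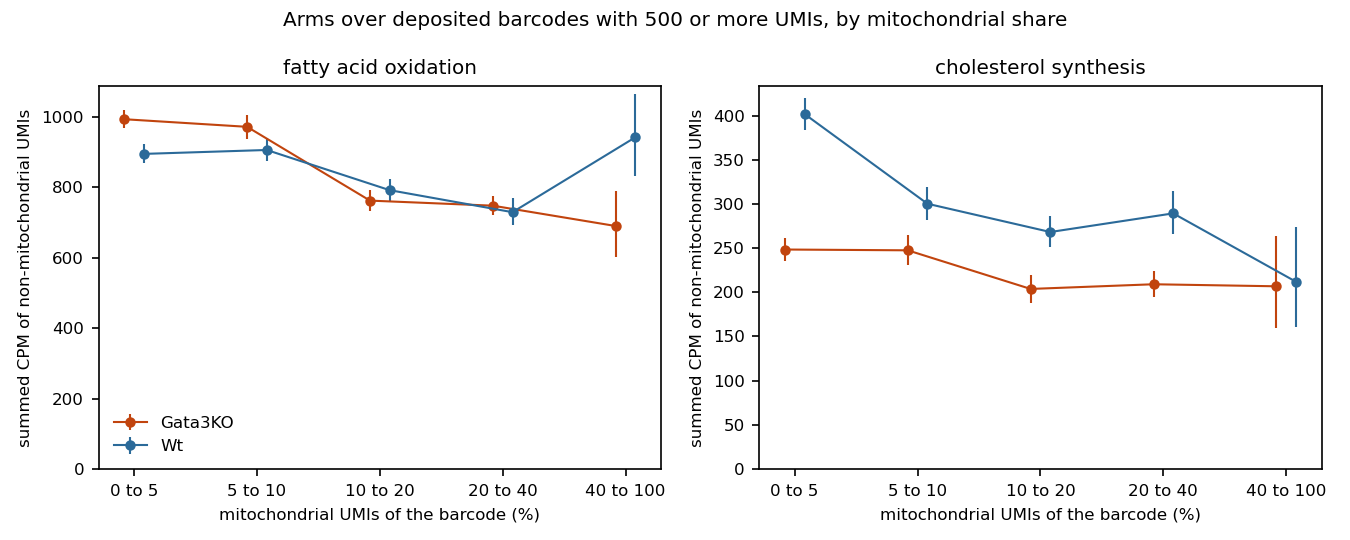
Summed level of each arm as CPM of the non-mitochondrial UMIs in bins of mitochondrial share, over deposited barcodes with 500 or more UMIs, with 95% Poisson intervals. The Gata3KO line of the cholesterol arm lies below the Wt line in the 4 bins up to 40%, and the lines of the oxidation arm cross.

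Neighbouring pathways were read from lists of further genes in monocytes and macrophages, where 5.05% of all 5897 measured genes were higher and 7.75% lower by 1.5-fold. Of 18 other mitochondrial oxidation genes, 7 were measured, 2 were higher by 1.5-fold and none was lower (median 0.20). *Mcee*, which handles the end product of odd chains, was at 64.4 CPM in Gata3KO and 38.5 CPM in Wt (0.73), and *Crat*, carnitine acetyltransferase, at 38.1 and 23.9 CPM (0.65). The carnitine carrier gene *Slc25a20* (16.4 and 20.9 CPM, -0.34) and *Acat1* (36.0 and 37.3 CPM, -0.05) were the lowest. Of 13 peroxisomal genes, 10 were measured and none passed 1.5-fold (median 0.07), from *Abcd2* (0.54) and *Hsd17b4* (0.40) to *Acox3* (-0.38) and *Acot8* (-0.47). Of 16 genes of fatty acid uptake, binding and regulation, 8 were measured, 1 was higher and none was lower (median 0.09). *Cd36*, the scavenger receptor and fatty acid transporter, was at 301 CPM in Gata3KO and 157 CPM in Wt (0.94, 0.82 to 1.07). *Fabp5*, a fatty acid binding protein gene, was at 4607 and 3234 CPM (0.51), while *Mlycd* (-0.20) and *Esrra*, a nuclear receptor gene of mitochondrial metabolism (21.1 and 30.7 CPM, -0.52, -0.89 to -0.19), were lower. Of 14 genes of fatty acid synthesis, 4 were measured and 1, the desaturase gene *Scd2*, was higher (56.4 and 36.0 CPM, 0.63), with *Acly* at 0.09, *Elovl1* at -0.03, the lipogenic regulator gene *Srebf1* at -0.30 (-0.65 to 0.04) and a median of 0.03.

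On the sterol side, among further synthesis genes, *Ebp*, a sterol isomerase gene, was at 85.0 CPM in Gata3KO and 74.7 CPM in Wt (0.19), and *Erg28* had a log2 ratio of -0.02. Among genes of sterol sensing and uptake, *Mylip*, which marks lipoprotein receptors for breakdown, was at 86.2 CPM in Gata3KO and 58.5 CPM in Wt (0.55, 0.35 to 0.78), *Npc1* at 146 and 118 CPM (0.31) and *Npc2*, a lysosomal cholesterol carrier gene, at 1684 and 2115 CPM (-0.33). Of 10 genes of cholesterol efflux and oxysterols, 9 were measured, 1 was higher and 2 were lower (median 0.18). *Abca1*, the cholesterol exporter induced by oxysterols, was at 259 CPM in Gata3KO and 140 CPM in Wt (0.88, 0.76 to 1.02) and *Soat1*, which esterifies cholesterol, at 263 and 189 CPM (0.48). *Cyp27a1*, which makes an oxysterol, was at 39.2 CPM in Gata3KO and 76.3 CPM in Wt (-0.94, -1.20 to -0.72), and *Stard3*, an endosomal sterol transporter gene, at 60.0 and 103 CPM (-0.77, -0.98 to -0.59). The summed level of the 10 lipid-handling macrophage markers, 2 of which (*Fabp5* and *Fabp4*) are on the uptake list, was also higher in the Gata3KO class, at 29550 CPM against 18670 CPM in Wt, and that of the monocyte markers lower, at 1411 CPM in Gata3KO and 3035 CPM in Wt. Their part in these differences was not tested. In dendritic cells 11.5% of all measured genes were higher and 14.9% lower. The uptake list had 4 measured genes there, of which 1 was higher and 1, *Fabp5*, was lower (488 CPM in Gata3KO and 1153 CPM in Wt, -1.24, -1.43 to -1.05). The higher one was *Ppard*, a nuclear receptor gene that falls outside the naming rule with 13 and 22 UMIs and was chosen after its values were seen (24.3 and 15.7 CPM, 0.60). *Hsd17b10*, a mitochondrial hydroxyacyl-CoA dehydrogenase gene, was higher (114 and 61.4 CPM, 0.88, 0.40 to 1.38), as was *Ebp* (88.0 and 50.0 CPM, 0.80, 0.25 to 1.37), and *Npc2* was lower (689 and 1147 CPM, -0.74, -0.90 to -0.57). Of the 10 genes of cholesterol efflux and oxysterols 7 were measured there. None of them was higher and 1, *Apoe*, was lower (606 CPM in Gata3KO and 1149 CPM in Wt, -0.92, -1.10 to -0.75). The dendritic genes named here are a selection and do not give the extremes of each list.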

How the data were processed

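The 2 deposited files hold whole-number UMI counts per gene and barcode. Seurat 3.0.2, Cell Ranger 3.0.1, R 3.6.1 and mm10 are named, per the submitters' processing notes. No label states further filters or the strand setting. Of the members, 17 overlap another annotated gene (GENCODE M21), whose reads could be shared. Cells were scaled to 10000 UMIs and clustered in scanpy 1.11.5 and leidenalg 0.10.2 on 2000 variable genes, 30 principal components and 15 neighbours, at resolution 0.6, with no integration. A cluster was named when at least 3 markers of a list, and one of its leading pair, were seen in 20% of cells, limits set after seeing the data. Scrublet marked 4 Gata3KO and 0 Wt cells as doublets, which were left in. Of the barcodes, 2 were shared by the libraries, 0 of them kept. Sums of counts were compared with exact conditional binomial and Poisson intervals at the 95% level, and a count of 0 was given a limit of 3 counts. The ratio was tested on simulated data. The members, gene lists and alternatives were chosen with earlier results of these data known. Full values are given for members at 20 CPM or more and 50 UMIs over both libraries in monocytes and macrophages, and each gene list by up to 2 highest and 2 lowest genes there. List genes in dendritic cells were picked without this rule. Of the genes this rule selects, 2 are not reported here. Alternatives varied the cell filter, clustering, scaling, thinning, minimum level and added CPM.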

Additional observations from a re-analysis of the deposited data

Results flagged for a closer look

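*Etfb* pointed in opposite directions in the lipid-handling clusters: its log2 ratio, Gata3KO over Wt, was 0.41 in cluster 1 (147 CPM in Gata3KO and 110 CPM in Wt) and -0.40 in cluster 3 (108 and 143 CPM). The difference between the clusters was not tested.

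Both arms were also read in cells outside the macrophage and dendritic classes, which the comparisons above do not use. In skeletal muscle-like cluster 7 the oxidation arm summed to 1506 CPM in Gata3KO, from 3 cells, and 895.9 CPM in Wt, from 30 cells, and the cholesterol arm to 343 CPM in Gata3KO and 153.2 CPM in Wt. In the collagen-rich cells of cluster 4 the oxidation arm summed to 985 CPM in Gata3KO (22 cells) and 1096 CPM in Wt (34 cells), and the cholesterol arm to 236 CPM in Gata3KO and 250.1 CPM in Wt.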

How the results depend on the processing

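No paired analysis was possible because each genotype had 1 library, and no replicate could be left out. In monocytes and macrophages the median and the summed ratio of the cholesterol arm stayed below 0 under all 17 alternatives that gave a value (-0.74 to -0.25 and -0.39 to -0.24). The count of cholesterol members lower by 1.5-fold, 2 as reported, was 1 with every barcode, under a stricter filter (1000 UMIs or more, 5% mitochondrial UMIs or less), with 10 CPM added and without the top cell of each library. It was 4 with cluster or finer cluster shares held equal and with no minimum CPM (where 1 was higher). At 100 CPM it was 0, since no cholesterol member reached that level. The oxidation median ranged from -0.07 to 0.29, the latter at 100 CPM, which *Echs1* and *Etfb* alone reached. The count of oxidation members higher was 1 at 20% mitochondrial UMIs and with finer shares equal, 3 with cells weighted alike and 4 with cells thinned. The count lower was 0 with every barcode, under the stricter filter, with cluster shares equal, at 100 CPM and with 10 CPM added, and 2 when thinned or with finer shares equal. *Acsl1*, the member lower as reported, did not reach 100 CPM. The summed oxidation ratio was -0.049 with every barcode, 0.053 under the stricter filter and 0.29 with cells weighted alike. In dendritic cells the cholesterol median was -1.83 under the stricter filter and turned to 0.31 when thinned and 0.25 with finer shares equal. Under 15 of 17 alternatives it stayed below 0, cluster shares held equal included. That setting weights cluster 6, with its 10 Gata3KO cells, as much as cluster 5, and the part of the shares was not tested. The cholesterol sum was -0.59 with every barcode, -1.14 at 20% mitochondrial UMIs, -1.47 under the stricter filter, -0.33 when thinned and -1.06 without the most abundant member. The oxidation median was -0.37 when thinned and -1.07 at 100 CPM, which *Acadl* alone reached. The oxidation sum was 0.056 without the most abundant member. Within clusters, thinning gave cholesterol medians of 0.19 in cluster 1 and -4.94 in cluster 2, where Gata3KO held 53 cholesterol UMIs before thinning. It gave an oxidation median of 0.52 in cluster 3. The 100 CPM minimum gave oxidation medians of -0.40 in cluster 3, where *Etfb* alone reached it, and -1.001 in cluster 6, where only *Acadl* and *Acadm* did. Medians at 100 CPM are thus values of few genes and not of the arm. The cause of the other shifts was not tested. The alternatives without the top cell and with finer cluster shares equal were chosen after seeing the data. Thinning left out 25 Gata3KO and 21 Wt macrophages and 6 and 15 dendritic cells. Depth limits single genes in dendritic cells and in clusters 2 and 6 of the Gata3KO library.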

Other observations

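Barcodes left out by the filter, 2784 in Gata3KO and 2300 in Wt, held the cholesterol arm at 157 CPM in Gata3KO and 212 CPM in Wt (log2 ratio -0.44, -0.54 to -0.33) and the oxidation arm at 571 and 605 CPM (-0.08, -0.14 to -0.03). In the unnamed cluster 0, of low UMI number, the oxidation arm was at 553 CPM in Gata3KO and 430 CPM in Wt (0.36, 0.11 to 0.62) and the cholesterol arm at 163 and 183 CPM (-0.17, -0.63 to 0.27).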
